A study of Mus musculus with 2 samples.

Results

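The 38 genes described here are the working parts of cell division, 14 that copy DNA and 24 that run mitosis. They were taken by symbol from the 31053 genes counted in a spatial transcriptomics study of the mouse skull, and all 38 were found. The study compared calvarial bone (bone of the skull vault) at day 7 after a defect was made. The group named Blank had a defect without the material under study, and the group named Col_nHA a defect that received a collagen/nHA material. Each group was 1 tissue section, and the labels used here give no strain, sex or age, no defect size and no count of animals. Each section was frozen, cut and read on an array of barcoded spots, where a spot takes up RNA from a small area that can hold several cells or part of one. Spots were the barcodes with at least 3667 unique molecular identifiers (UMIs, counted RNA molecules) in Blank and at least 4690 in Col_nHA. This kept 2249 spots in Blank and 2471 in Col_nHA.

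A dividing cell expresses these genes in 2 waves. Late in G1 and in S phase, E2F transcription factors release the genes that license replication origins, open and copy the DNA and supply nucleotides. In G2 and M, the MuvB core with B-MYB and FOXM1 raises the genes of the mitotic cyclins, kinases, centromeres and spindle. MuvB binds a promoter element called the cell cycle genes homology region (CHR), often near CCAAT boxes bound by NF-Y. In a healing bone defect, fibroblast-like progenitors, bone-forming cells, endothelial cells and macrophages are all known to divide, so these genes mark no single cell type.

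The promoters of the genes carried the elements of these waves in unequal shares. RefSeq promoters on GRCm38.p6, the build that mm10 names, from 250 bases before to 50 after the start, were available for 12 replication and 20 mitosis genes. An E2F word (TTTCCCGC, TTTCGCGC, TTTGCCGC or TTTGGCGC, either strand) stood in 6 of the 12 replication promoters (50%), those of Cdc6, Cdt1, Mcm3, Mcm5, Mcm6 and Mcm7. It stood in 1 of the 20 mitosis promoters (5%), that of Cdk1, and in 2.61% of all 27025 genes with a promoter. Shares are of genes, some of which have several promoter entries. A CHR word (TTTGAA or TTTAAA, either strand) stood in 18 of 20 mitosis promoters (90%) and in 3 of 12 replication promoters (25%), with 30.6% over all genes with a promoter. CCAAT, on either strand, occurred at least 2 times in 12 of 20 mitosis promoters (60%), in 5 of 12 replication promoters (41.7%) and in 13.3% of all. The palindrome TTTAAA reads alike on both strands and was counted once per position, and E2F words can overlap each other on opposite strands. A match is a string of letters and not a shown binding site. Tpx2, Ccna2, Aurkb, Gins2, Mcm4 and Kif20a had no entry in the promoter table.

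The 160 bases before the start that the promoter table uses are printed below for 2 replication and 3 mitosis genes, chosen to show each element; capitals mark the matches to the words above, and each is written 5′ to 3′ along the gene's strand. They lie at chr8:75109349-75109508 (plus strand) for Mcm5, chr1:128359706-128359865 (minus) for Mcm6, chr13:100786487-100786646 (minus) for Ccnb1, chr4:118437344-118437503 (minus) for Cdc20 and chr7:135716380-135716539 (minus) for Mki67.
Mcm5: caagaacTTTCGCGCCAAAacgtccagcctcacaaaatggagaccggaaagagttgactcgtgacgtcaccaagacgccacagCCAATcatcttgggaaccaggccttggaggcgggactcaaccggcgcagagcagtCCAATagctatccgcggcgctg
Mcm6: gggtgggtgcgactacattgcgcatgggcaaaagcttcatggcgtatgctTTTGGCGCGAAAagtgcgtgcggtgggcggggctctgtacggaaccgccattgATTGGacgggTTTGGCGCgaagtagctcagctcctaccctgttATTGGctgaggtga
Ccnb1: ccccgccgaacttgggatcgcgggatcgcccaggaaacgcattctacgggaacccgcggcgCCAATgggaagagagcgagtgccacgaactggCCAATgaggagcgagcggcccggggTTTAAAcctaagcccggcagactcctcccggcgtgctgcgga
Cdc20: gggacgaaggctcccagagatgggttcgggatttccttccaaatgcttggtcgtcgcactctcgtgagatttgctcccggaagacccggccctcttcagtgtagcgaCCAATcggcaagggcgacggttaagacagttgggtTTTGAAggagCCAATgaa
Mki67: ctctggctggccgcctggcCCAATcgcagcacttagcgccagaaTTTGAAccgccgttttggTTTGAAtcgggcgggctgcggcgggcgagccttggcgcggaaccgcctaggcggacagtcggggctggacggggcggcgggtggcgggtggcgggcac
The table's start lies inside the span of the gene as the gene table gives it for Mcm5, where 41 of the printed bases fall in the span, and for Mki67, where 71 do; for the others none do. In Mcm5 and Mcm6 the E2F word overlaps a second one on the other strand. In Ccnb1 a CHR word follows 2 CCAAT boxes, in Cdc20 it lies between 2 of them, and Mki67 holds 2 CHR words.

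The spots held 30705849 UMIs in Blank, 88.1% of the deposited total, and 40202268 in Col_nHA, 89.1%. The median depth of a spot was 9733 UMIs in Blank against 13815 in Col_nHA, and 265 and 215 barcodes lay within 10% of the minimum. The sections did not hold the same tissues. Spots with over 2% of their UMIs in the lists for skin, hair follicle, muscle, fat, nerve, brain and choroid plexus made up 27.1% of Blank and 13.9% of Col_nHA. As summed levels (CPM, UMIs scaled to a common section total), choroid plexus genes were at 11975 in Blank against 21.1 in Col_nHA, and mature muscle genes at 5149 against 12332. Over the 24 cell type lists, only Ctsg and Krt31 were at 0 in a section. The osteoblast and osteocyte list, which defines bone, was present in both, at 1032 and 626 CPM. Other lists moved too: macrophage and monocyte genes stood at 6639 and 8880 CPM, lipid-associated and foreign-body macrophage genes at 5139 and 14807, wound epidermis genes at 148 and 980, and fibroblast genes at 23526 and 16875. Their part in the results on the division genes was not tested. No spot positions were used, so where a spot lay is not described, and both matrices list the same 4992 array barcodes.

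With 1 section per group there is no spread between animals and no test. Levels are UMIs summed over all spots and divided by the section total (CPM, scaled to a common total), ratios are Col_nHA over Blank, and brackets give exact 95% intervals that cover counting error only. A bulk sum cannot tell more dividing cells from more RNA per dividing cell.

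Both waves stood higher in Col_nHA, and mitosis by the larger ratio. The 14 replication genes summed to 328 CPM in Blank (10072 UMIs) against 515 CPM in Col_nHA (20703 UMIs), a ratio of 1.57 (1.53 to 1.61). The 24 mitosis genes together stood at 413 CPM (12696 UMIs) and 775 CPM (31139 UMIs), a ratio of 1.87 (1.83 to 1.91). Each of the 38 genes was higher in Col_nHA with an interval above 1. Such intervals cover counting error only and are narrow at high counts, and the share of all genes that would pass is not given. The median log2 ratio was 0.72 over the replication genes and 0.91 over the mitosis genes, while the median over the 11652 genes at 5 CPM or more in either section was 0.003. Leaving out the Col_nHA region with the most mitosis RNA, a choice made after its level was seen that lowers the ratio by construction, gave 1.41 and 1.62.

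Of the 14 replication genes 9 reached a ratio of 1.5, and of the 24 mitosis genes 22 did, while none was lower by that fold. Among all 9855 genes with at least 10 CPM in either section, 5.13% reached 1.5-fold in this direction and 7.07% in the other. All 24 mitosis genes and 12 of the 14 replication genes passed that minimum, but 7 of the mitosis genes reached it in Col_nHA alone. With the minimum set on the mean of both sections, 7 of 12 replication genes and 20 of 22 mitosis genes were past 1.5-fold, beside 4.67% of 9494 genes. A ratio of 2 was reached by 7 genes, all of mitosis, beside 1.83% of all genes (and 3.4% at least 2-fold lower): Bub1, Plk1, Hmmr, Tpx2, Aurka, Ube2c and Birc5. With the minimum on the mean it was 5 of 22 mitosis genes, without Bub1 and Hmmr, beside 1.53% of 9494 genes. The count of 7 was 12 without the spots of other tissues and 0 without the Col_nHA region named above.

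**Figure D1:**
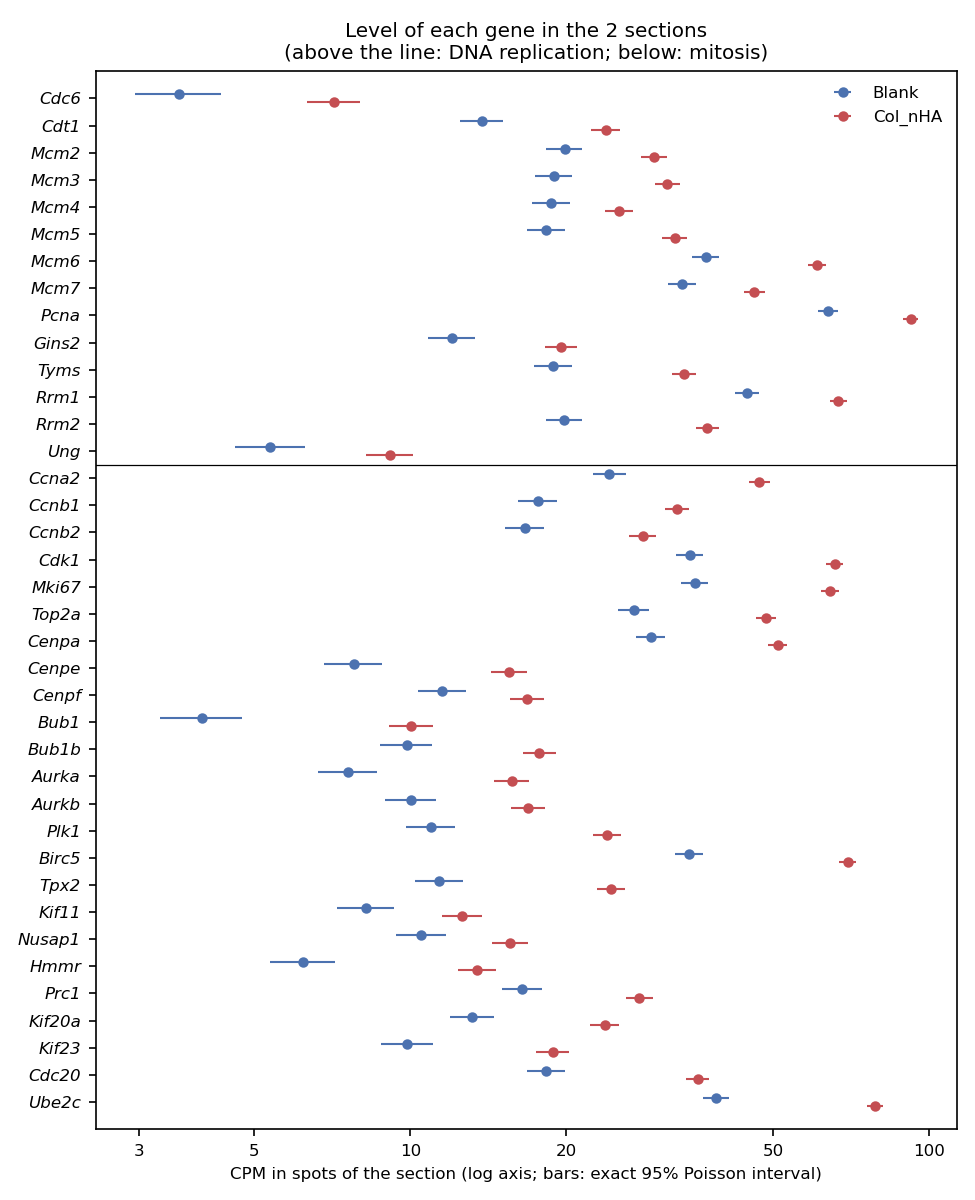
Level of each of the 38 genes in CPM (log axis) in the spots of Blank and Col_nHA, with replication genes above the line and mitosis genes below it; bars are exact 95% Poisson intervals. For every gene the Col_nHA point lies to the right of the Blank point, for example 78.7 against 38.9 CPM for Ube2c and 92.1 against 63.9 CPM for Pcna.

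Replication begins when Cdc6 and Cdt1 load the Mcm2 to Mcm7 helicase ring onto origins. Cdc6 stood at 3.58 CPM in Blank and 7.14 in Col_nHA, a ratio of 1.99 (1.59 to 2.51) and the highest of the replication genes. Cdt1 stood at 13.7 and 23.8 CPM, a ratio of 1.73 (1.54 to 1.95). The 6 subunits of the ring, which act as 1 complex, did not share a single ratio. Mcm5 (18.3 and 32.4 CPM, chr8:75109468-75128439) was at 1.77 (1.60 to 1.96), Mcm3 (18.9 and 31.3 CPM) at 1.65 (1.498 to 1.83) and Mcm6 (37.1 and 60.9 CPM) at 1.64 (1.53 to 1.76). Mcm2 (19.8 and 29.6 CPM) was at 1.49 (1.35 to 1.65), Mcm7 (33.4 and 46.1 CPM) at 1.38 (1.28 to 1.49) and Mcm4 (18.7 and 25.2 CPM) at 1.35 (1.22 to 1.497). The intervals of Mcm4 and Mcm7 lie below those of Mcm5 and Mcm6, so this gap is larger than counting error. Mcm7 overlaps its neighbour Ap4m1 by 91 bases.

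At the fork, Gins2 is a subunit of the GINS complex that activates the helicase, and Pcna is the sliding clamp that holds the polymerases. Gins2 stood at 12.02 CPM in Blank and 19.5 in Col_nHA, a ratio of 1.62 (1.43 to 1.84). Pcna (chr2:132249286-132253180) stood at 63.9 and 92.1 CPM, a ratio of 1.44 (1.37 to 1.52), among the 5 replication genes under 1.5-fold with Mcm2, Mcm4, Mcm7 and Rrm1. Pcna also serves DNA repair outside S phase.

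Nucleotide supply was carried by 3 genes. Rrm1 and Rrm2 are the subunits of ribonucleotide reductase, of which Rrm2 is the one whose level follows S phase and Rrm1 the more stable. Rrm2 stood at 19.8 CPM in Blank and 37.3 in Col_nHA, a ratio of 1.89 (1.71 to 2.08), and Rrm1 at 44.6 and 66.8 CPM, a ratio of 1.49965 (1.40 to 1.60) that lies just under 1.5. The intervals of the 2 subunits do not overlap. Tyms, which makes thymidylate, stood at 18.9 and 33.8 CPM, a ratio of 1.79 (1.62 to 1.98). Ung, which removes uracil from DNA, stood at 5.37 and 9.13 CPM, a ratio of 1.70 (1.41 to 2.05).

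Entry into mitosis is driven by Cdk1 with cyclins A2, B1 and B2. Cdk1 stood at 34.6 CPM in Blank and 65.7 in Col_nHA, a ratio of 1.90 (1.77 to 2.05). Ccna2, the cyclin that already acts in S phase, was at 24.2 and 47.1 CPM (1.95, 1.79 to 2.12), Ccnb1 at 17.6 and 32.7 CPM (1.86, 1.68 to 2.05) and Ccnb2 at 16.6 and 28.0 CPM (1.69, 1.52 to 1.88). The intervals of the 4 genes share the range from 1.79 to 1.88, so counting error does not separate them. Mki67, the proliferation marker that coats mitotic chromosomes, stood at 35.4 and 64.4 CPM, a ratio of 1.82 (1.70 to 1.96). Top2a, which untangles sister chromosomes, stood at 27.0 and 48.5 CPM, a ratio of 1.80 (1.66 to 1.95).

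The genes of the centromere and the spindle checkpoint spanned the widest range of ratios. Bub1, a checkpoint kinase, stood at 3.97 CPM in Blank and 10.0 in Col_nHA on 122 and 404 UMIs, a ratio of 2.53 (2.06 to 3.12) and the highest of the 38 genes. Cenpf, an outer kinetochore protein, stood at 11.5 and 16.8 CPM, a ratio of 1.46 (1.28 to 1.66) and the lowest of the mitosis genes. The Bub1 and Cenpf intervals lie apart. Cenpe, a kinetochore motor, was at 1.99 (1.72 to 2.32), Bub1b, the partner checkpoint protein BubR1, at 1.80 (1.57 to 2.07), and Cenpa, the centromeric histone, at 1.76 (1.62 to 1.90).

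Among the mitotic kinases, Plk1 (10.98 and 24.0 CPM) was at 2.18 (1.93 to 2.48) and Aurka (7.59 and 15.7 CPM), which acts at spindle poles, at 2.07 (1.78 to 2.41). Aurkb, the kinase of the chromosomal passenger complex, was at 10.03 and 16.9 CPM, a ratio of 1.68 (1.47 to 1.93). Birc5, or survivin, sits in the same complex as Aurkb and stood at 34.5 and 69.7 CPM, a ratio of 2.02 (1.88 to 2.17). The intervals of these 2 partners overlap between 1.88 and 1.93. Tpx2, which activates Aurka on the spindle, was at 11.4 and 24.4 CPM (2.14, 1.90 to 2.43), and Hmmr, a spindle-binding protein, at 6.22 and 13.46 CPM (2.16, 1.83 to 2.56). The other spindle genes stood lower, Kif11, the motor that pushes the poles apart, at 1.53 (1.32 to 1.79) and Nusap1, a microtubule-bundling protein, at 1.49 (1.30 to 1.71).

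Late mitosis and exit are the work of the midzone genes and of the anaphase-promoting complex. Prc1, which bundles midzone microtubules, was at 1.68 (1.51 to 1.87), and the midzone motors Kif20a and Kif23 at 1.80 (1.60 to 2.03) and 1.91 (1.67 to 2.18). Cdc20, which switches the anaphase-promoting complex on, stood at 18.3 CPM in Blank and 35.8 in Col_nHA, a ratio of 1.96 (1.78 to 2.17). Ube2c, the enzyme that feeds ubiquitin to that complex (chr2:164769929-164772902), stood at 38.9 and 78.7 CPM, a ratio of 2.02 (1.89 to 2.17). Of the 38 genes, 9 overlap a protein-coding neighbour in the RefSeq table, and Prc1 shares 21669 bases with Rccd1, so reads of such pairs may have been split or dropped in counting.

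**Figure D2:**
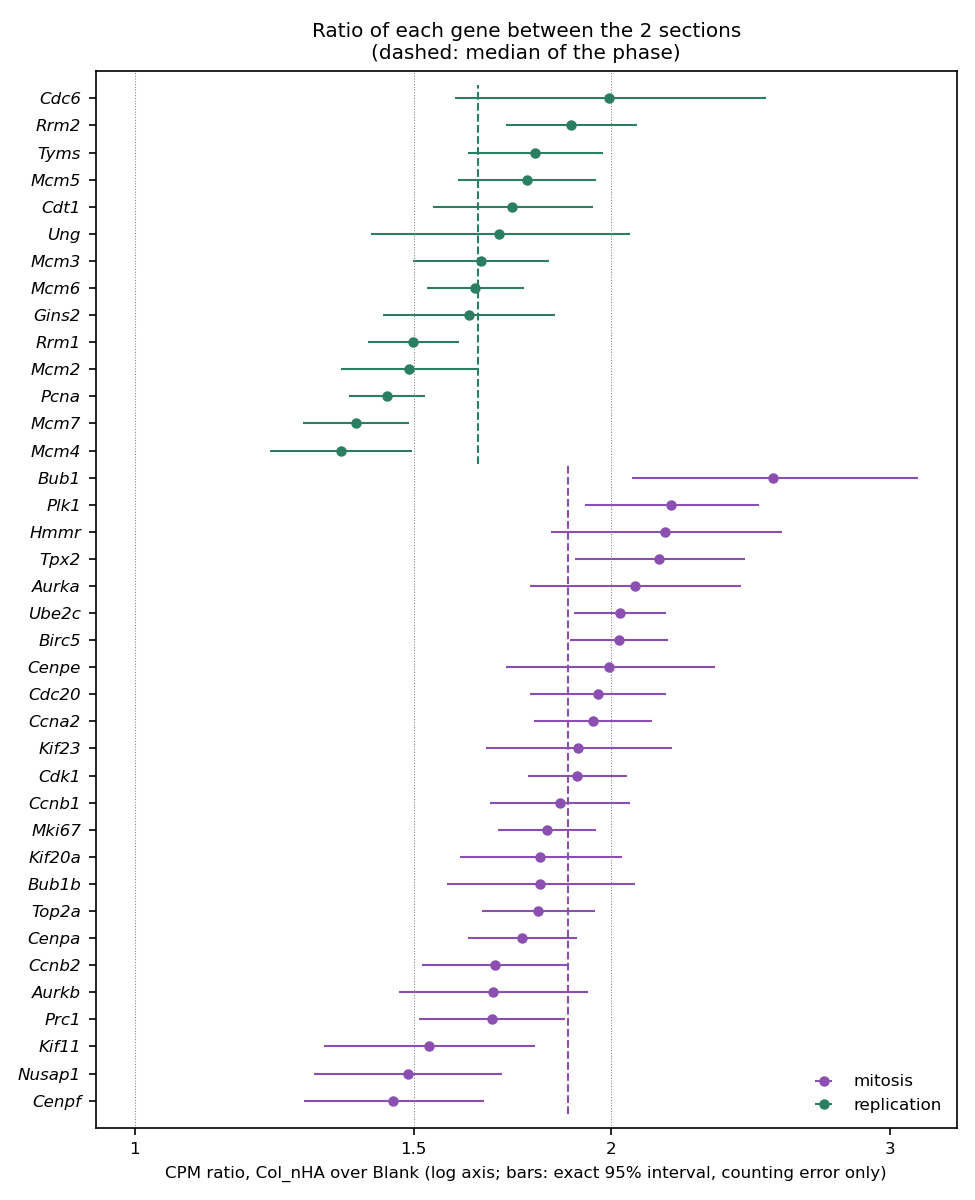
CPM ratio of Col_nHA over Blank for each gene (log axis), with exact 95% intervals for counting error and dashed lines at the median of each phase. The replication ratios run from 1.35 (Mcm4) to 1.99 (Cdc6) and the mitosis ratios from 1.46 (Cenpf) to 2.53 (Bub1), so the 2 ranges overlap while the mitosis median lies to the right.

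The balance between the waves can be read without scaling the libraries. Blank held 1.26 mitosis UMIs per replication UMI and Col_nHA 1.504, an odds ratio of 1.19 (1.16 to 1.23). The ranges of the 2 gene groups overlap, so this is a shift of the sums and not a gap between every pair of genes. Without the spots of other tissues the odds ratio was 1.16, and without the Col_nHA region with the most mitosis RNA it was 1.14.

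Other genes of the same pathways fell in 7 lists, counted here among genes with a mean of at least 10 CPM over both sections and read beside 4.67%. Of their 142 genes 89 passed that minimum. Another 23 entries reached 10 CPM in Col_nHA alone, some of them named below, and such genes had to be the higher ones there. In the list of origin recognition and firing, 2 of 8 genes reached 1.5-fold, and the median log2 ratio, over genes at 5 CPM or more in either section, was 0.53. Gmnn, which codes for geminin, the inhibitor of Cdt1, was at 2.18 (1.92 to 2.49), and Dbf4, which activates the Cdc7 kinase, at 1.69. The origin recognition subunits Orc4 (1.18) and Orc6 (1.42) were closer to 1. Of the polymerases, clamp loader and fork proteins, 7 of 19 passed 1.5-fold, with a median of 0.52. Tk1, the S-phase thymidine kinase, was at 2.06, Dut, which removes dUTP, at 1.57 and Rfc2, a clamp loader subunit, at 1.28. Chaf1a, a histone loader, was at 1.99 but outside the 19, at 6.12 CPM in Blank and 12.2 in Col_nHA.

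The G1 genes stood lower than the replication and mitotic lists. Of the G1 cyclins, E2F and other cell cycle transcription factors, 1 of 11 passed 1.5-fold (median log2 ratio 0.43). Cdk4 stood at 154 CPM in Blank against 177 in Col_nHA, a ratio of 1.15, and Ccnd3, a D-type cyclin, at 121 and 104 CPM, a ratio of 0.860. By contrast Ccne1, the cyclin of S-phase entry, was at 2.04 but outside the 11, at 5.57 CPM in Blank and 11.4 in Col_nHA. Foxm1, the activator of the mitotic wave, stood at 9.18 and 16.9 CPM, a ratio of 1.84 (1.60 to 2.12).

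Few inhibitors of division passed the fold in either direction. Of the cyclin-dependent kinase inhibitors and pocket proteins, 1 of 13 passed 1.5-fold upward and 1 downward (median log2 ratio -0.13). Over all genes 4.67% passed upward and, at 10 CPM or more in either section, 7.07% downward, so these counts give no finding on the list. Cdkn1c, which codes for the inhibitor p57, stood at 143 CPM in Blank and 66.0 in Col_nHA, a ratio of 0.462 (0.440 to 0.484). Cdkn3, a phosphatase that acts on Cdk2, was at 2.14 but outside the 13, at 6.29 CPM in Blank and 13.4 in Col_nHA. The growth-arrest genes Btg1 (1.05) and Gas1 (0.917) were near 1.

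The kinetochore and spindle lists stood highest. In the kinetochore and checkpoint list 7 of 11 genes passed 1.5-fold, with a median log2 ratio of 0.90, and Spc24, a subunit of the Ndc80 complex, was at 2.21 and the centromere gene Cenpm at 1.9995. Bub3 (1.15) and Zwint (1.195) of the same list were near equal. Of the spindle motors, centrosome and cytokinesis genes 7 of 11 passed, with a median of 0.81. Tacc3 was at 2.08, while the tubulins Tubb5 (1.41) and Tuba1b (1.25), which all cells use, were lower. Kif4 (2.09) was outside the 11, at 4.95 CPM in Blank and 10.3 in Col_nHA. Of the condensin, cohesin and chromatin genes 4 of 16 passed, with a median of 0.50. Uhrf1 was at 1.87, Hmgb2 at 1.496 and the histone gene H2afz at 1.47. Ncapg (1.92) was outside the 16, at 5.73 CPM in Blank and 10.99 in Col_nHA.

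Spots with at least 1 UMI of a wave were counted after drawing 2000 UMIs from each spot, which sets all spots at the same depth. In Blank 45.8% of spots (43.8 to 47.9) held a replication UMI, against 58.8% (56.8 to 60.7) in Col_nHA. For a mitosis UMI the shares were 49.6% (47.5 to 51.7) and 67.9% (66.0 to 69.7). The shares differed by more than counting error for both waves. Without thinning the shares were 89.1% and 95.7% for replication and 89.2% and 94.7% for mitosis.

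Such shares are no count of spots with dividing cells, since barcodes under the UMI minimum carried nearly the same RNA. Drawn to 500 UMIs, a replication UMI was present in 15.2% of Blank spots and in 11.6% of barcodes under the minimum, and in 22.4% and 19.7% in Col_nHA. For mitosis the shares were 18.5% and 17.7% in Blank and 29.9% and 28.4% in Col_nHA. In summed CPM the barcodes under the minimum stood at 280 and 450 for replication and at 395 and 717 for mitosis, again higher in Col_nHA.

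A mitosis UMI was more frequent in spots that also held a replication UMI. Where a Blank spot held a replication UMI, 54.8% also held a mitosis UMI, and where it held none 45.2% did. In Col_nHA the shares were 74.7% and 58.2%. Across spots the Spearman correlation of the thinned sums was 0.136 in Blank and 0.233 in Col_nHA, weak values from sparse counts that give no finding on their own. Mitosis UMIs were more clumped than replication UMIs, with a variance over mean of 1.43 against 1.11 in Blank and 1.66 against 1.25 in Col_nHA, where 1 is the value of random scatter.

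To find in which kinds of spots the waves ran high, spots of both sections were grouped by expression into 15 regions. Other genes only were used, with the 38 genes and the pathway lists left out. A region is thus a set of spots alike in expression and gives no place in the tissue. Regions carry a number and their leading genes, and values were taken where a section had at least 50 spots in a region, which gave 9 regions in Blank and 10 in Col_nHA, 4 of them in both. Over these 19 values the summed mitosis level ran from 89.6 to 1315 CPM, a 14.7-fold range, and the replication level from 131 to 774 CPM, a 5.90-fold range. The waves ranked the regions alike, with a Pearson r of 0.975 on log2 sums across 19 values that share 2 libraries.

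In Col_nHA the highest level was in region 10, led by Il1rl1, Ptgs2 and Cxcl5. Its 458 spots stood at 774 CPM for replication (753 to 796) and 1315 CPM for mitosis (1287 to 1343). They held 28.0% of the mitosis UMIs and 24.8% of the replication UMIs of the section, beside 16.5% of all its UMIs. In this region 0.32% of UMIs fell in the myofibroblast and smooth muscle list, the highest share of the 19 values, 1.61% in the fibroblast list and 0.52% in the macrophage and monocyte list. Its median depth of 10349 UMIs was below that of the section.

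Next came regions of different make-up. Region 15, led by Sprr2a3, Krt6b and Klk13, with 1.38% of UMIs in the wound epidermis list, stood at 1047 CPM for mitosis. Region 12, led by the osteoclast genes Oscar, Mmp9 and Acp5, stood at 903 CPM, region 11, led by the osteoblast genes Ifitm5, Bglap and Ibsp, at 830 CPM, and region 14, led by Ly6c2, Cxcl10 and Slamf8, at 814 CPM. Osteoclasts themselves do not divide, and a spot holds a mixture, so the level belongs to the spot and not to a cell type. Regions 9, 5, 4 and 6 of Col_nHA followed at 638, 626, 567 and 529 CPM, and region 13, led by the muscle gene Mettl21c, was lowest at 89.6 CPM.

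Among regions with at least 50 spots, Blank peaked lower and elsewhere. Regions 10, 12 and 15 held 6, 17 and 0 Blank spots and so had no Blank value. The Blank spots of region 12 held 2.13% of the mitosis and 1.19% of the replication UMIs of Blank, beside 1.06% of all its UMIs. Of the regions with a Blank value, region 5, led by Npy, Rgs1 and Spp1, stood highest for both waves, over 66 spots. It stood at 469 CPM for replication (432 to 509) and 753 CPM for mitosis (705 to 803). Its replication interval overlaps those of regions 2 (467 CPM) and 3 (462 CPM). Under the 3 other groupings tried, a region led by Defb8 or 9130204L05Rik was highest for replication, at 493 to 510 CPM. For mitosis the region led by Npy stayed highest in all but the finest grouping, where it held 9 Blank spots. Region 3, led by the skin genes Defb8, Flg2 and Krt77, stood at 568 CPM for mitosis, and region 2, led by Mup7, Cfd and Cyp2e1, at 480 CPM. Region 1, led by Tnmd, Sfrp2 and Capn6, was the widest with 575 spots and stood at 445 CPM, holding 35.8% of the mitosis UMIs of Blank beside 33.3% of all UMIs. Region 8, led by the muscle-building genes Myog, Myh3 and Mymk, stood at 324 CPM, and region 7, led by the choroid plexus genes Ttr and Kl with Otx2, at 160 CPM.

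The balance of the waves also moved across regions. It was 1.70 mitosis UMIs per replication UMI in region 10 of Col_nHA, 1.62 in region 15, and 1.60 in region 5 of Blank. It was near 1 in region 8 of Blank (0.998), region 2 (1.03) and region 6 (0.975), and lowest in the muscle region 13 of Col_nHA (0.682) and the choroid plexus region 7 of Blank (0.832). The 4 lowest mitosis levels belonged to the 4 of the 19 values with fewer mitosis than replication UMIs. Of the regions with a value in both sections, the balance went from 1.17 in Blank to 1.37 in Col_nHA in region 4 and from 0.975 to 1.39 in region 6. It went down from 1.60 to 1.26 in region 5 and from 1.59 to 1.54 in region 11.

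**Figure D3:**
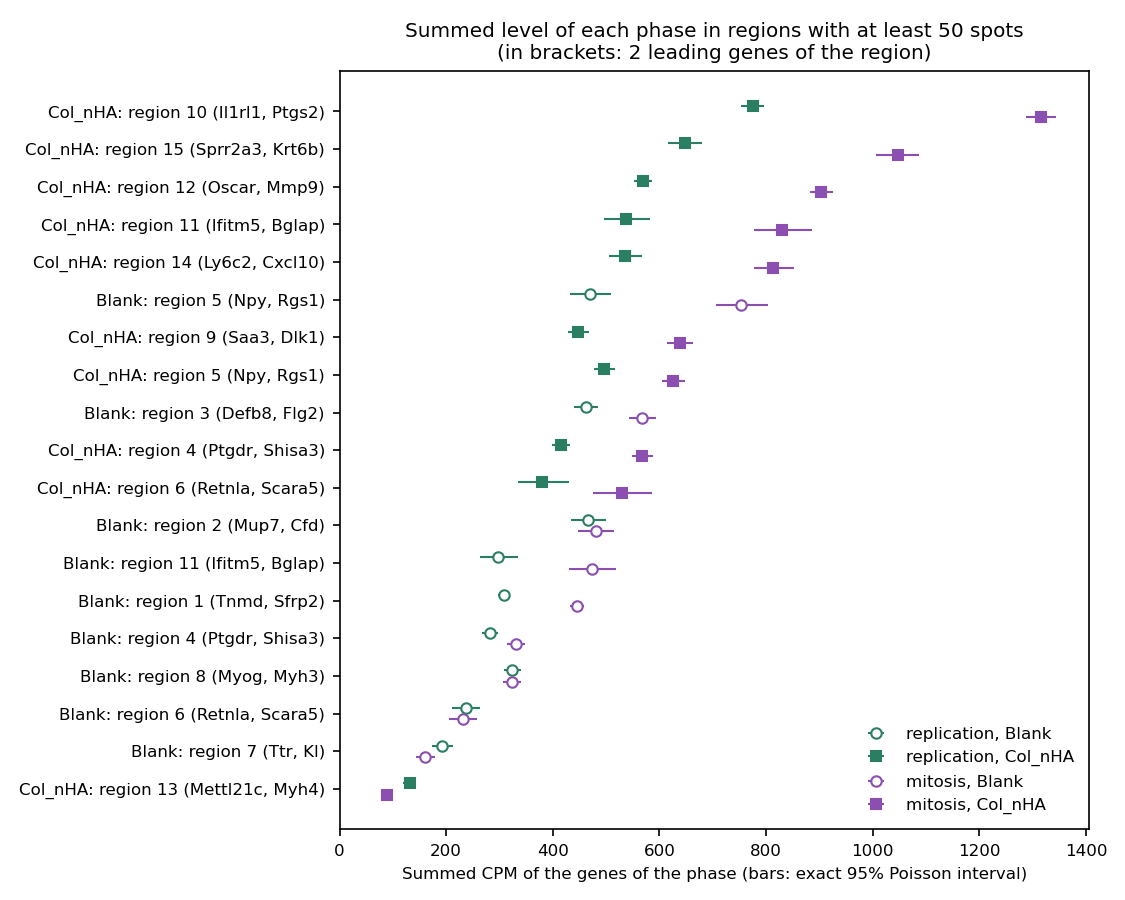
Summed CPM of the replication and the mitosis genes in each section and region with at least 50 spots, ordered by mitosis level; bars are exact 95% Poisson intervals, open circles Blank and filled squares Col_nHA. The 5 highest mitosis values, from 814 to 1315 CPM, are all of Col_nHA, and the lowest, 89.6 CPM, is the muscle region of Col_nHA.

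Regions 10 and 5 were picked by the summed levels of these same genes, so many single genes peak there by construction. In Col_nHA region 10 was the highest region for 20 of 24 mitosis genes and 8 of 14 replication genes. In Blank region 5 was highest for 21 of 24 mitosis genes and 5 of 14 replication genes, and region 3 for another 5 replication genes. The share of all genes that peak in these regions was not counted. Mki67 stood at 101 CPM in region 10, 97.0 in region 15 and 75.2 in region 12 of Col_nHA, and at 7.74 in the muscle region 13. In Blank it was 64.5 CPM in region 3, 59.9 in region 5 and 14.03 in region 7. The top Blank values overlap by their intervals. Ube2c ran from 9.12 CPM in region 13 to 143 CPM in region 10 of Col_nHA and from 14.99 CPM in region 7 to 74.5 CPM in region 5 of Blank.

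Some replication genes took another order. Pcna was highest in region 14 (127 CPM, 113 to 142) and region 5 (121 CPM, 111 to 131) of Col_nHA, whose macrophage and monocyte shares of 1.83% and 1.86% were the highest of the 19, with region 10 at 119 CPM (110 to 127). These 3 intervals overlap. Mcm5 was highest in region 10 of Col_nHA, at 55.1 CPM, and next in region 2 of Blank, at 45.8 CPM, which was the top Blank region for 4 replication genes. Ung was highest in that Blank region at 17.3 CPM (11.6 to 24.8, on 29 UMIs). In the muscle region 13 of Col_nHA Ung stood at 10.2 CPM, near its section level of 9.13, while the other 37 genes were below theirs. Mature muscle genes took 12.9% of the UMIs of region 13, and the share of all genes below their section level there was not counted.

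**Figure D4:**
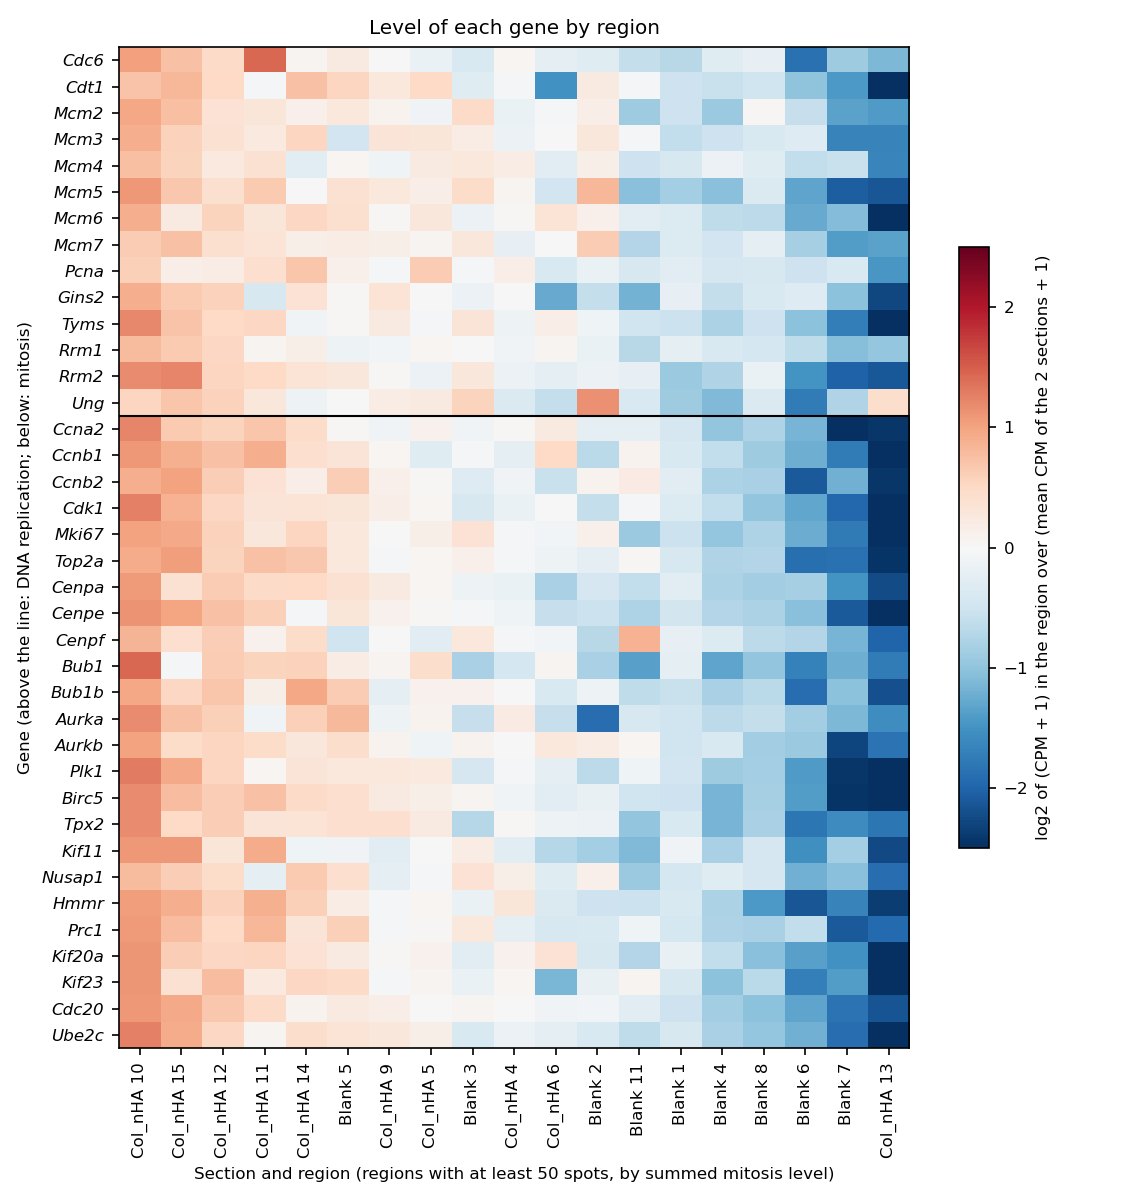
Colour shows log2 of (CPM + 1) of each gene in a region over (mean CPM of both sections + 1), with section and region in columns ordered by mitosis level and genes in rows. Columns at the left (Col_nHA 10 and 15) are above the mean for nearly all genes and columns at the right (Blank 7, Col_nHA 13) below, with Ung in Blank 2 among the exceptions.

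The sections were also compared within the 4 regions that both held, whose make-up still differed between them. In region 4 lipid-associated macrophage genes took 0.477% of UMIs in Blank against 1.59% in Col_nHA, macrophage and monocyte genes 0.647% against 1.15% and erythroid genes 0.726% against 0.193%. In region 6 mature muscle genes took 0.0380% against 0.330%, and in region 11 osteoblast and osteocyte genes 1.93% against 1.15%. The part of these shifts in the ratios was not tested. In region 4, led by Ptgdr, Shisa3 and Col6a5, replication was higher in Col_nHA by a ratio of 1.47 (1.38 to 1.58) and mitosis by 1.72 (1.62 to 1.83), and all 38 genes had a ratio above 1, as did 59.6% of all genes at 10 CPM or more there. In region 6, led by Retnla, Scara5 and Dpp4, the ratios were 1.61 (1.36 to 1.90) and 2.29 (1.96 to 2.68), on 322 and 255 replication UMIs. Under coarser grouping the matching region was wider, with 733 Blank and 80 Col_nHA spots, and its mitosis ratio was 1.39. Under the finest grouping the match of region 6 held 26 Col_nHA spots, under the minimum, with a mitosis ratio of 1.28 (1.02 to 1.60). There the match of region 4 took in 38.6% of its spots and held 41 Blank spots, with ratios of 1.29 for replication and 1.45 for mitosis. Region 11, led by the osteoblast genes, had ratios of 1.80 (1.56 to 2.09) and 1.76 (1.57 to 1.97). The share of all genes at 10 CPM or more that were at least 1.5-fold higher was 5.16% in region 4, 12.02% in region 6 and 18.4% in region 11.

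Region 5 went the other way for mitosis. Its mitosis genes summed to 753 CPM in Blank against 626 in Col_nHA, a ratio of 0.832 (0.773 to 0.896), and its replication genes at 469 and 496 CPM, a ratio of 1.06 (0.965 to 1.16). Of the 24 mitosis genes 20 had a ratio below 1, and the intervals of Ccnb1 (0.638), Ccnb2 (0.654), Aurka (0.594) and Prc1 (0.658) lay below 1, while among all genes at 10 CPM or more in the region 58.7% were below 1. Pcna (1.41, 1.14 to 1.75) and Mcm3 (1.74, 1.11 to 2.86) were higher in Col_nHA there. Region 5 had the most RNA of lipid-associated and foreign-body macrophage genes in each section, 2.25% of UMIs in Blank and 4.19% in Col_nHA, and its Blank value rests on 66 spots against 274.

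Depth also differed between the sections within these regions, and its part in the result was not tested. The median spot held 10296.5 UMIs in Blank against 18000 in Col_nHA in region 4 and 9384 and 18563 in region 11, but 14891 and 15361.5 in region 5 and 8085 and 9518 in region 6.

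**Figure D5:**
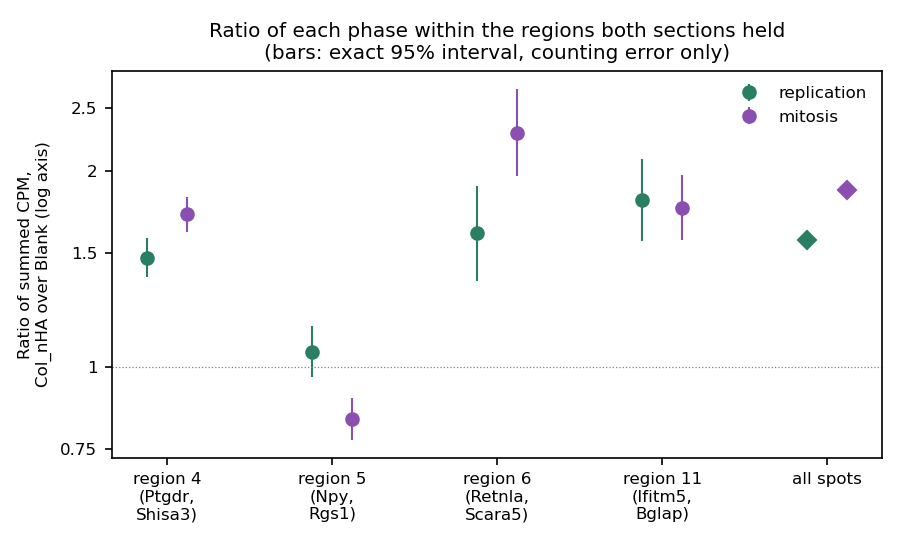
Ratio of summed CPM, Col_nHA over Blank (log axis), of the replication and mitosis genes within the 4 regions held by both sections (circles) and over all spots (diamonds); bars are exact 95% intervals for counting error. Regions 4, 6 and 11 lie above 1 for both waves, and region 5 lies at 1.06 for replication and 0.832 for mitosis.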

How the data were processed

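The authors deposited UMI counts per gene and array barcode, made with Space Ranger on mm10 per the submitters' processing notes. The sources used here give neither its version nor whether counting used strand. The labels describe frozen spatial sections, while their extraction text describes a droplet single-cell library. The members and gene lists were chosen with earlier results of these data known. Counts of spots at or above the UMI minimums (3667 in Blank, 4690 in Col_nHA) were added up within each section and expressed as CPM. A 3-count floor was 0.0977 CPM in Blank and 0.0746 CPM in Col_nHA. Intervals (95%) are exact: Poisson for CPM, conditional binomial for ratios, Clopper-Pearson for shares; they cover counting error only. Regions came from 2000 variable genes without 180 cell division genes, scaled to 10000 counts per spot, 30 principal components, 15 neighbours and Leiden resolution 0.6 (scanpy 1.11.5), without batch integration or doublet calling. Named pathway genes are the 2 most abundant and the 2 whose log2 ratio lies farthest from 0, at 10 CPM or more, in each of 7 lists; region leading genes are the 3 with the highest fold at 50 CPM or more. Of 331 list symbols 330 were found. The gene table and promoters are from RefSeq (GRCm38.p6), and a gene with several promoter entries counted if any held the motif. Alternatives were other UMI minimums, other scalings (edgeR 4.0.16 TMM, on Python 3.11.15 and R 4.3.3), other CPM minimums, other thinning depths, other clusterings, and leaving out spots of other tissues or region 10, the last chosen after seeing the data. Intervals, fold counts and thinning were tested on simulated counts with known ratios, which hold counting error only and no spread between animals.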

Additional observations from a re-analysis of the deposited data

Results flagged for a closer look

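Barcodes under the UMI minimum, which are left out of the levels and ratios by gene and region, held RNA of both waves. A floor of 3 counts was 0.721 CPM in Blank and 0.608 CPM in Col_nHA there. It is a floor for a single gene, so sums over many genes lie above it with ease. Replication reached 280 CPM in Blank against 450 in Col_nHA, and mitosis 395 against 717 CPM. These levels were 0.853 to 0.956 times those of the spots.

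The mitosis ratio within region 5, 0.832, had the opposite direction to the other regions held by both sections, with 1.72, 2.29 and 1.76. The difference between regions was not tested, since each section is 1 sample.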

How the results depend on the processing

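No paired analysis was possible because each group has 1 section. No summed ratio, balance or single-gene ratio of the 38 genes changed direction over all spots. The median log2 ratio over all genes, 0.003, became -0.05 with no CPM minimum and -0.01 with the mean of per-spot CPM. The ratio of summed CPM was 1.67 for replication and 1.93 for mitosis without the spots of other tissues, 1.62 and 1.93 with TMM, 1.62 and 1.94 with median-of-ratios scaling, and 1.53 for replication with the mean of per-spot CPM. Without region 10 it was 1.41 and 1.62, the median log2 ratio of mitosis 0.69, the balance 1.14, and, at 10 CPM or more, 3 replication genes (against 7) and 18 mitosis genes (against 22) passed 1.5-fold and 0 genes (against 7) passed 2-fold. The balance was 1.16 and the 2-fold count 12 without the spots of other tissues. With a 50 CPM minimum, which leaves fewer genes, 1 replication and 5 mitosis genes passed 1.5-fold and 2 genes passed 2-fold. The cause of the other moves was not tested. All 304 ratios of single genes over 8 settings stayed above 1.

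Shares of spots depend on depth by construction. For replication they were 89.1% in Blank and 95.7% in Col_nHA without thinning, 15.2% and 22.4% at 500 UMIs and 66.6% and 79.0% at 4000 UMIs. For mitosis they were 89.2% and 94.7%, 18.5% and 29.9%, and 70.6% and 83.0%. Without the spots of other tissues the Col_nHA shares were 62.7% and 73.8%. The highest region of Col_nHA stood at 658 CPM for replication and 1073 CPM for mitosis at resolution 0.3 and at 821 and 1440 CPM at resolution 1, and that of Blank at 510 and 650 CPM at resolution 1. The mitosis ratio of region 5 was 0.836 at resolution 0.3 and 0.813 with the cell division genes kept, and at resolution 1 the matching region held 9 Blank spots, under the minimum of 50. Its ratios there were 0.509 for mitosis and 0.920 for replication, the latter below 1 in place of 1.06.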
